A study of Arabidopsis thaliana with 34 samples.

Results

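The 6576 regions described here had ChIP-seq peaks of NRPE1, the largest subunit of the plant RNA polymerase Pol V, in wild-type *Arabidopsis* (WT) and had no called peak in ZF108-DMS3. To obtain them, the peaks of the 4 NRPE1 lists of ZF108-DMS3 and WT were merged wherever they overlapped, which gave 41427 regions. A merged region was called absent when both WT libraries and neither ZF108-DMS3 library had a peak in it. The absent regions were 15.9% of all merged regions and 39.1% of the 16812 regions found in both WT lists. Of the remainder of these, 5901 had a peak in 1 ZF108-DMS3 library (partly kept) and 4335 had one in both (kept). A further 5268 regions were found in both ZF108-DMS3 lists and in neither WT list (gained). The classes were thus chosen by the presence of NRPE1 peaks in ZF108-DMS3 and WT, and only the other lists measure something that the choice did not use.

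The study asked how linker histone H1 shapes where the RNA-directed DNA methylation (RdDM) machinery sits in the genome. All lines were in the Col-0 ecotype and each combination of antibody and genotype had 2 libraries. NRPE1 was measured in ZF108-DMS3, *h1* and WT, histone H1 in ZF108-DMS3, *nrpe1* and WT, the histone mark H3K9me2 in *h1* and WT, and FLAG-tagged SUVH1 in *h1* alone. ZF108-DMS3 is a homozygous transgenic line in a WT background whose construct fuses DMS3 to 3xFLAG and a zinc finger, and *h1* is a double insertion mutant of the genes *h1.1* and *h1.2*. The *nrpe1* line is an insertion mutant of NRPE1, the SUVH1-3xFLAG construct was introduced into *h1*, and WT carried no transgene. The ZF108-DMS3 libraries for H1 and for NRPE1 were made from the same chromatin. The material was pooled seedlings, 10 to 12 days old, according to the methods, whereas the sample labels give floral tissue. Replicates were counted as separate libraries. The permutation p-values below set the libraries of 2 genotypes against each other. The sign-flip p-values ask only whether the difference between 2 classes of regions has the same direction over the lists of an antibody.

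In RdDM, Pol V produces scaffold transcripts at its target loci, where small RNAs bound by ARGONAUTE proteins pair with them and the methyltransferase DRM2 is brought in to methylate cytosines in all sequence contexts. DMS3 belongs to the complex that, with DRD1 and RDM1, is required for Pol V to associate with chromatin, and a zinc finger fused to DMS3 can bring Pol V to the sites that the finger binds. H1 binds the linker DNA between nucleosomes and is abundant in pericentromeric heterochromatin, where H3K9me2 marks silent transposons. SUVH1 is a protein that binds methylated DNA near RdDM targets.

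Absent regions are shown here by 200 bases around the strongest WT summit of 2 of them, 1 without H1 and H3K9me2 peaks and 1 with both. They were picked by rank and are not typical, with a WT strength, defined below, of 90.6 and 76.2 against a median of 38.5. Members are numbered by the order in which they were named. Region 2 was among the members highest in WT NRPE1 strength and had no NRPE1 peak in *h1*. Region 10 had the highest strength among the members with H1 and with H3K9me2 in both WT lists. The sequences are the plus strand of chr1:26953088-26953287 and chr3:13598511-13598710 in TAIR10.1 from RefSeq, and capitals mark CG sites, the cytosines that maintenance methylation acts on in both strands.
region 2: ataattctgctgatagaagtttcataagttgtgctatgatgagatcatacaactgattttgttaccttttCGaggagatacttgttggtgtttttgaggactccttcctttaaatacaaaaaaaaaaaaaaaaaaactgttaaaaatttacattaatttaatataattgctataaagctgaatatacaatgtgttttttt
region 10: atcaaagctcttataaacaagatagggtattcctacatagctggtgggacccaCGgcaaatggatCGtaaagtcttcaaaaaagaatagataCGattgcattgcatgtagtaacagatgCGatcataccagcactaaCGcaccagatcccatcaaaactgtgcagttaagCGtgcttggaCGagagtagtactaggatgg
The window of region 2 held 1 CG site at 25.5% GC, and the window of region 10 held 7 at 43.0% GC.

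Absent regions were narrow and weak in WT. Their width had a median of 444.5 bp (141 to 3397 bp) and they covered 3.53 Mb, whereas the median was 748 bp in partly kept and 1133 bp in kept regions. WT strength was defined as the percentile of the strongest peak of a region among all peaks of its list by −log10 p, averaged over both WT lists. It had a median of 38.5 in absent regions, from 0.495 to 91.7, against 71.8 in partly kept and 88.0 in kept regions. The fold enrichment that the peak caller gave over its local background had medians of 2.68 and 3.01 in the WT lists at absent regions, and of 5.60 and 8.73 at kept regions. These values come from the lists that chose the classes and are a description only.

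When the 16812 regions were divided into 4 strength groups of 4203, absent regions made up 81.9% of the weakest group, 59.8% of the second, 14.5% of the third and 0.262% of the strongest. They numbered 3444, 2512, 609 and 11 from the weakest to the strongest group, against 67, 313, 1191 and 2764 kept regions. Most members lay in the 2 weakest groups, where kept regions were few.

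**Figure D1:**
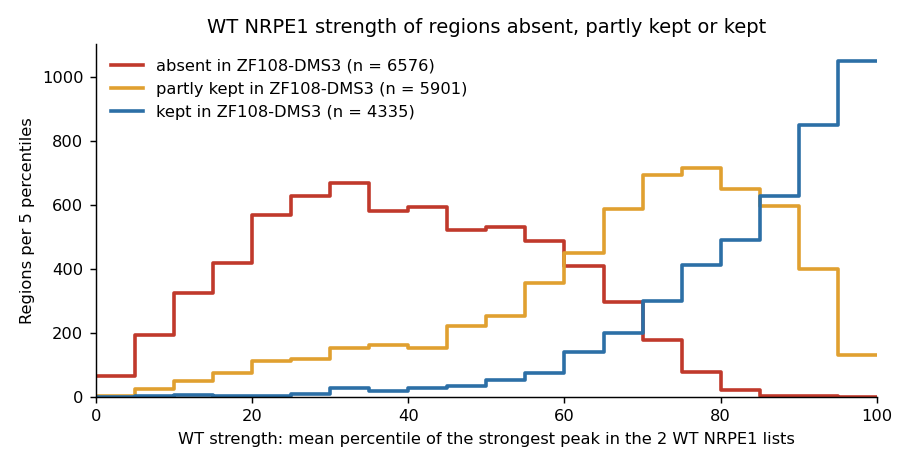
The number of regions (y axis, per 5 percentiles) is plotted against WT NRPE1 strength (x axis, percentile) for the 6576 absent, 5901 partly kept and 4335 kept regions. The absent regions have a median of 38.5 and the kept regions one of 88.0, and above a strength of 82.7, where the strongest group begins, 11 absent regions remain.

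The ZF108-DMS3 lists held fewer peaks than the WT lists, with 18173 and 20358 peaks over 7.20 and 7.53 Mb in ZF108-DMS3, against 25522 and 24915 peaks over 13.6 and 13.8 Mb in WT. The 2 ZF108-DMS3 lists also differed from each other. Of the 16812 regions, 4502 had a peak in replicate 1 and 10069 in replicate 2, and 5734 of the 5901 partly kept regions had theirs in replicate 2. With replicate 2 alone deciding, 6776 regions were absent, and with replicate 1 alone 12375 were. With WT replicate 2 or 1 alone deciding for WT, 13552 and 14156 were absent. When each of the 4 lists was reduced to the same number of strongest peaks, 3964 regions were absent. Read depth is unknown, so fewer reads and less NRPE1 in ZF108-DMS3 cannot be told apart.

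The members with the lowest −log10 q in WT were chr2:2635303-2635537, with values of 3.78 and 1.31, and chr3:12286878-12287155, with 3.40 and 1.31. Just outside the rule lay chr3:17548476-17548907, where ZF108-DMS3 replicate 2 had a peak of −log10 q 1.32 and the WT values were 16.3 and 24.2. At chr3:15711554-15712516 the ZF108-DMS3 replicate 2 peak had −log10 q 1.36 and the WT peaks 9.18 and 5.31. Both regions outside the rule had clearly called WT peaks and missed it through a single weak peak.

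NRPE1 was present at nearly all absent regions in *h1*. In the 2 *h1* lists, 94.1% and 92.1% of absent regions had an NRPE1 peak, against 97.2% and 97.3% of kept regions. The difference of −4.17 points had the same sign in both lists, which cannot give an exact two-sided p below 0.5. Both *h1* lists had a peak at 5954 absent regions (90.5%), where the same call was made for 94.1% of all 16812 regions. Neither *h1* list had one at 283 (4.30%), beside 3.21% of all. When bases were counted instead of regions, 85.4% and 81.0% of the bases of absent regions lay under *h1* peaks and 82.6% and 79.7% of those of kept regions, a difference of the opposite sign (+2.00 points).

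NRPE1 peaks at the absent regions ranked higher and were wider in *h1* than in WT. Their strongest peak had a median percentile of 62.1 and 61.4 in the *h1* lists, against 41.5 and 40.6 in the WT lists. Its median width was 1322 and 1073 bp in *h1*, against 310 and 313 bp in WT. At kept regions the median percentiles were 89.2 and 89.6 in *h1* and 88.4 and 87.9 in WT, and the median widths 1107 and 964.5 bp in *h1* and 810 and 889 bp in WT. The WT values belong to the lists that chose the members, which were weak in WT, so the difference was not tested. Medians in *h1* cover only regions with an *h1* peak (6190 and 6057 of the absent regions), whereas every absent region has a WT peak. Peaks were also wider over the whole *h1* lists, with median widths of 565 and 503 bp, against 383 and 393 bp in WT.

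The share of absent regions with an H1 peak in ZF108-DMS3 and in *nrpe1* differed from that in WT by less than the gap between WT replicates. In ZF108-DMS3, where NRPE1 had no peak at these regions, H1 peaks lay on 55.7% and 57.5% of absent regions. They lay on 57.0% and 56.8% in *nrpe1*, and on 55.9% and 58.6% in WT. The groups overlapped, and the gap between the WT replicates (2.69 points) was larger than either difference between genotypes. ZF108-DMS3 minus WT was −0.669 points (p = 0.667 by two-sided exact permutation of libraries, adjusted p = 1.0). The same exact permutation for *nrpe1* minus WT gave −0.403 points (p = 1.0, adjusted p = 1.0). With 2 libraries a group the p of this test cannot go below 0.333. Both *nrpe1* lists carry the same internal sample number in their deposited names, and their shares differed by 0.152 points, against 1.84 points between the ZF108-DMS3 lists and 2.69 points between the WT lists. They had 0 identical peaks and were counted as 2 libraries, but whether they come from separate plant material could not be told from the labels. Without WT replicate 2 both differences turned positive (+0.677 points for ZF108-DMS3 and +0.943 points for *nrpe1*), and without ZF108-DMS3 replicate 1 ZF108-DMS3 minus WT did so too (+0.251 points).

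Few absent regions changed in both libraries of a genotype. H1 was present in both WT lists and in neither ZF108-DMS3 list at 57 absent regions (0.867%), beside 1.01% of all 16812 regions. It was present in both ZF108-DMS3 lists and in neither WT list at 46 (0.700%), beside 0.601%. For *nrpe1*, 67 absent regions had H1 in WT alone (1.02%, beside 1.17%) and 52 had it in *nrpe1* alone (0.791%, beside 0.660%). Losses and gains were of similar number, and their shares were close to those of all WT NRPE1 regions. No difference in the number of H1 peaks between these genotypes was detectable at absent regions with these lists.

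H3K9me2 lay on 46.7% and 47.7% of absent regions in *h1*, against 46.8% and 53.4% in WT. The difference of −2.86 points was smaller than the 6.61 points by which the WT libraries differed from each other (p = 0.667 by exact permutation of libraries, adjusted p = 1.0). Of the absent regions, 118 had the mark in both WT lists and in neither *h1* list (1.79%, beside 1.97% of all regions). It was present in both *h1* lists and in neither WT list at 42 (0.639%, beside 0.404%). Without WT replicate 2 the difference turned to +0.449 points.

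Set against kept regions, absent regions had H1 and H3K9me2 more often and SUVH1 less often in every list, without passing the adjusted test. H1 lay on 55.7% to 58.6% of absent and 22.2% to 26.6% of kept regions over the 6 H1 lists. The difference of 33.0 ± 1.02 points (SD, n = 6 lists) had the same sign in all 6 lists (exact sign-flip permutation over lists, two-sided, p = 0.03125, adjusted p = 0.125 over 4 such comparisons), which is the smallest p this test allows and does not pass 0.05 after adjustment. H3K9me2 lay on 46.7% to 53.4% of absent and 18.5% to 25.3% of kept regions, with a difference of 27.9 ± 1.07 points (SD, n = 4 lists, exact sign-flip p = 0.125, adjusted p = 0.25). In windows of 300 bases around the WT summit, which have the same length in both classes, the differences were 42.5 points for H1 and 34.3 points for H3K9me2. With equally long NRPE1 lists, which leave 3964 absent and 4202 kept regions, they were 18.1 points for H1 and 13.2 points for H3K9me2. The lists of different genotypes share the regions and are not independent of each other in that sense. Partly kept regions lay between both classes, with H1 on 31.7% to 34.7% and H3K9me2 on 25.4% to 32.0%.

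SUVH1 in *h1* lay on 46.9% and 37.0% of absent regions, against 74.3% and 76.2% of kept regions. The difference of −33.3 points had the same sign in both lists (exact sign-flip p = 0.5, the smallest possible with 2 lists). Both SUVH1 lists had a peak at 1774 absent regions (27.0%), whereas the call was made for 45.0% of all 16812 regions. The first list, which had the higher share at absent regions, was also the longer one, with 18181 peaks against 13938.

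**Figure D2:**
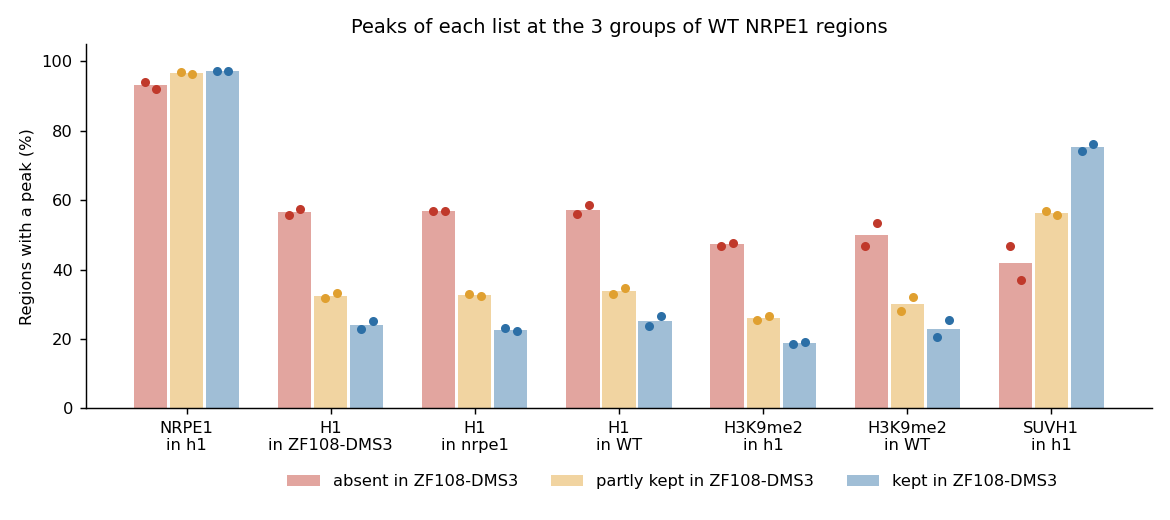
The percentage of regions with a peak (y axis) is shown for each antibody and genotype (x axis), with bars for the mean and points for the 2 libraries, in absent, partly kept and kept regions. H1 lies on 55.7% to 58.6% of absent regions in all 3 genotypes, above the 22.2% to 26.6% of kept regions, and SUVH1 shows the opposite order.

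The differences between absent and kept regions changed with WT strength. In the weakest group, H1 lay on 74.1% to 77.0% of absent regions and 44.8% to 61.2% of the 67 kept regions, higher in absent regions in all 6 lists (+20.5 points). In the second group it lay on 41.3% to 45.1% of absent and 44.7% to 50.2% of kept regions, lower in absent regions in all 6 lists (−4.81 points). In summit windows the difference in that group was +0.155 points, higher in 3 of 6 lists. In the third group H1 lay on 11.8% to 13.0% of absent and 26.9% to 31.6% of kept regions (−16.4 points, lower in all 6 lists). In summit windows of that group it lay on 6.40% to 8.21% of absent and 14.0% to 16.8% of kept regions (−7.88 points). The 11 absent regions of the strongest group had no H1 peak in any of the 6 lists, and 16.7% to 21.2% of the kept regions there had one. The difference in the strongest group was −18.5 points over whole regions and −4.86 points in summit windows. Absent regions were still weaker and narrower than kept ones inside each group, with median strengths of 51.3 and 58.0 and median widths of 550 and 977 bp in the second, and median strengths of 69.2 and 76.2 and median widths of 591 and 1103 bp in the third. The groups therefore narrow the difference in WT strength without removing it, and the part of strength and width in these values was not tested.

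H3K9me2 followed the same order, with +15.6, −4.36, −12.1 and −18.0 points from the weakest to the strongest group. SUVH1 gave −8.51, −7.07, −30.6 and −60.5 points and was lower in absent regions in both lists of every group. In the weakest group, the SUVH1 lists had peaks on 50.1% and 34.3% of absent and on 52.2% and 49.3% of kept regions, so that the difference there was smaller than the gap between the lists. NRPE1 in *h1* gave +13.9, +2.80, −3.05 and −25.9 points, and in the 2 weaker groups absent regions had an *h1* peak more often than kept ones in both lists. The kept regions of the weakest group (67) and the absent regions of the strongest (11) were few, and these divisions were made with the values of the classes known.

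**Figure D3:**
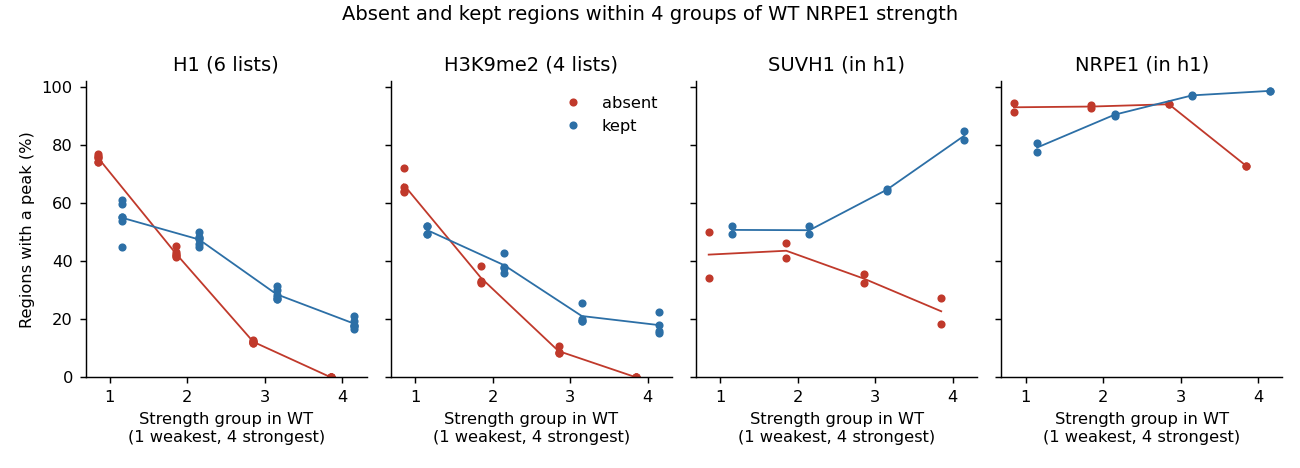
The percentage of regions with a peak (y axis) is plotted by group of WT NRPE1 strength (x axis, 1 weakest) for absent and kept regions, with a point for each list and a line through the means. H1 falls with strength in both classes, and absent regions are above kept regions at 74.1% to 77.0% in group 1 and below them at 11.8% to 13.0% in group 3.

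By their chromatin in WT, absent regions fell into 2 large groups. H1 and H3K9me2 were both present in both WT lists at 2753 absent regions (41.9%), and neither was present in either list at 2305 (35.1%). H1 alone was found at 319, H3K9me2 alone at 71, and 1128 differed between libraries. Read from the chromatin side, 58.1% of the 4737 WT NRPE1 regions with both were absent in ZF108-DMS3, whereas 26.9% of the 8584 with neither were. These shares were not divided by WT strength, which was lower with both than with neither in every class. Its medians were 29.8 and 53.4 in absent, 49.6 and 78.0 in partly kept, and 81.1 and 89.5 in kept regions. H1 was called in both WT lists at 3453 absent regions (52.5%, beside 36.4% of all regions), and H3K9me2 at 2974 (45.2%, beside 31.9%).

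The 2 groups differed in place and strength. Of the members with both H1 and H3K9me2, 90.9% lay in gene-poor windows, which were defined as 100-kb windows with under 30% of their bases in protein-coding genes, and 58.0% overlapped a pseudogene. Of the members with neither, 17.5% lay in such windows and 5.77% overlapped a pseudogene, while 22.0% overlapped a protein-coding gene. The median WT strength of members was 29.8 with both and 53.4 with neither, at similar median widths of 430 and 441 bp. The contrast in place was also found outside the members. Of kept regions with both, 82.4% lay in gene-poor windows and 43.7% overlapped a pseudogene, against 8.06% and 5.81% with neither. In partly kept regions these shares were 93.0% and 50.4% with both, and 10.4% and 4.58% with neither.

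Absent regions were also divided by the H1 and H3K9me2 lists of WT. The median rank and width of their NRPE1 peaks were higher in *h1* than in WT with either mark, with both and with neither. The WT values again come from the lists that chose the members, and the *h1* medians leave out members without an *h1* peak. Members with H1 and H3K9me2 had median percentiles of 57.3 and 56.8 in *h1*, against 33.6 and 27.9 in WT, and median peak widths of 1669 and 1341 bp in *h1*, against 284 and 253 bp in WT. Members with H1 alone had percentiles of 73.5 and 72.9 in *h1*, against 41.8 and 39.2 in WT, and the 71 members with H3K9me2 alone had 67.4 and 64.4 in *h1*, against 37.2 and 39.8 in WT. Members with neither had 59.3 and 59.4 in *h1*, against 52.6 and 56.8 in WT, and widths of 520 and 447.5 bp in *h1*, against 330 and 378 bp in WT. An *h1* peak was present at 86.5% and 85.1% of the members with neither, and at 98.2% and 94.9% of those with both. Kept regions with H1 and H3K9me2 had widths of 2549.5 and 2157 bp in *h1*, against 1157 and 1181 bp in WT, and percentiles of 87.7 and 87.9 in *h1*, against 82.1 and 81.2 in WT. Kept regions with neither had widths of 795 and 710 bp in *h1*, against 703 and 768 bp in WT. Wider *h1* peaks beside H1 and H3K9me2 were thus found in both classes. Since the percentile is a rank within a list, a peak can rank higher because others rank lower. Neither the difference between *h1* and WT nor that between the groups was tested.

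**Figure D4:**
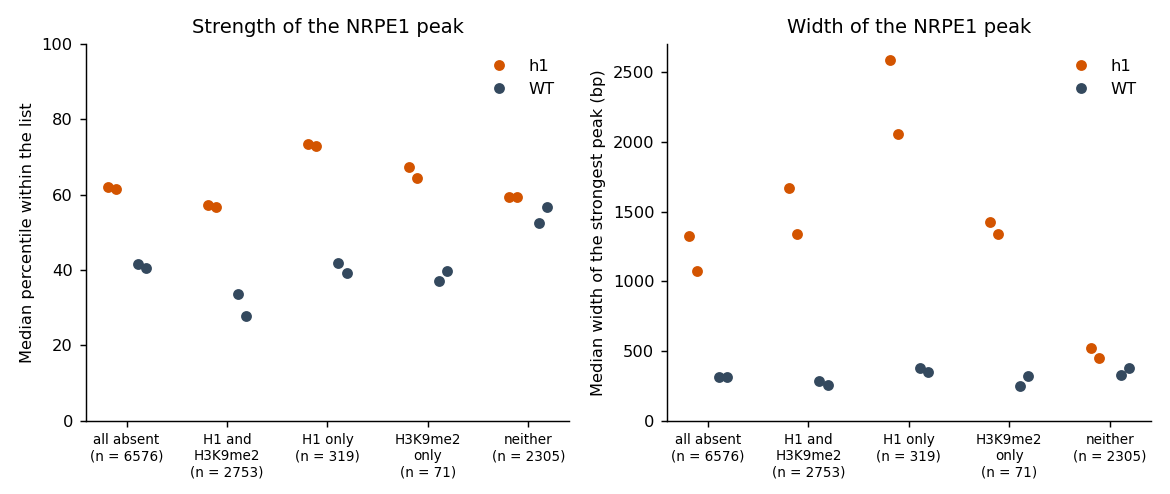
Median percentile (left y axis) and median width in bp (right y axis) of the strongest NRPE1 peak at absent regions are shown for *h1* and WT by the chromatin of the region in WT (x axis), with a point for each of the 2 libraries. The width is 1341 and 1669 bp in *h1* at members with H1 and H3K9me2, and 447.5 and 520 bp at members with neither, while in WT it stays between 250 and 378 bp in every group. The *h1* medians leave out members without an *h1* peak, and the WT lists are those that chose the members.

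The 283 members without an NRPE1 peak in either *h1* list had little of the other marks. H1 lay on 8.83% to 11.3% of them over the 6 lists, H3K9me2 on 10.2% to 11.7% over 4 lists, and SUVH1 on 5.30% and 4.95%. At the 5954 members with a peak in both *h1* lists these shares were 58.6% to 61.7%, 48.6% to 55.7%, and 50.1% and 39.6%. The 283 lay in gene-poor windows in 27.2% of cases, against 57.9% of the 5954. Regions of the other classes without an *h1* peak had even less of these marks. H1 lay on 1.97% to 4.61% of 152 such partly kept regions and on 0.0% to 2.88% of 104 such kept regions. SUVH1 lay on 1.97% and 3.29% of the former and on 0.962% of the latter in both lists, so that this trait was not particular to absent regions.

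Around the WT summit, the absent regions showed a sharp NRPE1 peak in WT, while their shares under H1 and H3K9me2 peaks were nearly level. These shares average over members with both H1 and H3K9me2 (41.9%), with neither (35.1%) and the rest. H3K9me2 in WT covered 37.7% and 46.2% of absent regions at the summit and 37.7% and 46.1% at 1 kb downstream. At the summit 89.0% and 86.4% of absent regions lay under a WT peak, and 1 kb downstream 31.3% and 30.5% did. The high WT share at the summit follows from the rule and from centring on WT summits. In *h1*, 88.9% and 86.2% lay under a peak at the summit and 61.3% and 57.4% at 1 kb downstream. At 3 kb downstream the shares were still 53.1% and 48.8% in *h1*, against 27.4% and 25.3% in WT. Of kept regions, 34.9% and 33.6% lay under an *h1* peak at 1 kb downstream, and 27.2% and 29.9% under a WT peak. In ZF108-DMS3 the values for absent regions were 0 at the summit, as the rule sets, and 3.39% and 8.53% at 1 kb. H1 in WT covered 42.4% and 46.9% of absent regions at the summit and 40.6% and 45.2% at 1 kb, so that it was nearly level, whereas at kept regions it covered 7.87% and 8.67% at the summit. SUVH1 in *h1* covered 28.5% and 21.5% of absent regions at the summit and 22.4% and 15.3% at 1 kb, a low peak beside the 64.6% and 67.0% at the summits of kept regions.

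**Figure D5:**
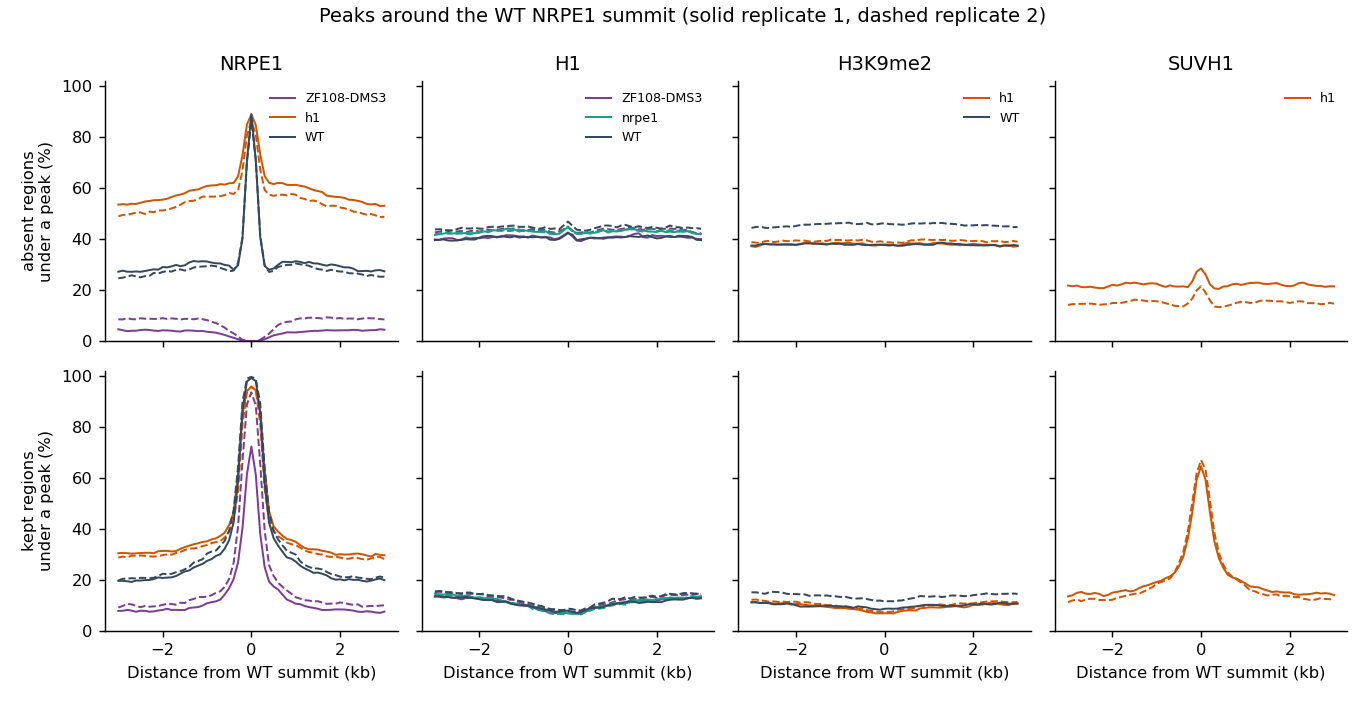
The percentage of regions under a peak (y axis) is plotted against the distance from the WT NRPE1 summit in kb (x axis) for absent regions (top) and kept regions (bottom), with a panel for each antibody, a colour for each genotype and a line for each library. NRPE1 at absent regions drops to 31.3% and 30.5% at 1 kb in WT and stays at 61.3% and 57.4% in *h1*.

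Absent regions were spread over all 5 chromosomes and were frequent in gene-poor windows. They made up 37.6% to 40.8% of the WT NRPE1 regions of each chromosome. In gene-poor windows, 3739 of the 7016 WT NRPE1 regions were absent (53.3%), and in the other windows 2837 of 9796 were (29.0%). Put the other way, 56.9% of absent, 37.3% of partly kept and 24.8% of kept regions lay in gene-poor windows, and 2.52% of the gained regions did. This difference, too, changed with strength, from +14.5 points between absent and kept regions in the weakest strength group to −4.66 in the second and −12.6 in the third. At least 1 member lay in 910 of 1193 windows, with a median of 4 in those.

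The 3 windows with the most members lay in gene-poor DNA. The window chr5:14300001-14400000 held 37 absent regions among 55, with 1 kept. The window chr3:13700001-13800000 held 36 among 66, with 5 kept, and chr4:3200001-3300000 held 35 among 44, with none kept. Coding genes took up 15.6% of the first of these windows and none of the other 2.

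Within gene-poor windows, H1 lay on 78.6% to 82.7% of absent regions, against 54.5% to 64.3% of kept regions, and H3K9me2 on 70.9% to 80.1%, against 54.0% to 67.4%. In the other windows H1 lay on 23.9% to 27.0% of absent regions, against 11.5% to 14.2% of kept regions, and H3K9me2 on 11.8% to 18.2%, against 6.75% to 11.4%. The differences kept their sign in each list within both kinds of window for H1 and averaged 21.9 and 13.4 points. SUVH1 was lower at absent regions in both, by an average of −38.5 and −39.3 points.

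Absent regions overlapped protein-coding genes less often than kept regions did. Of the 6576, 941 (14.3%) overlapped a protein-coding gene, 670 (10.2%) its coding sequence, and 769 (11.7%) only the 1 kb before its start, whereas 38.2% of kept regions overlapped a protein-coding gene. A pseudogene was overlapped by 2294 (34.9%), against 16.3% of kept regions, and 2583 (39.3%) overlapped none of these nor a noncoding gene. Partly kept regions lay between, with 23.7% on a protein-coding gene and 20.0% on a pseudogene. These shares are for whole regions, and kept regions, with a median width of 1133 bp against 444.5 bp, offer more bases to overlap. Of the 1562 transposons that the study listed by length, 338 (21.6%) held an absent region and 968 (62.0%) a kept one. Transposons outside this list were not counted, so the transposon shares hold for the listed elements only. An absent region was held by 8.81% of those under 1 kb, 20.3% of those of 1 to 2 kb, 47.0% of those of 2 to 5 kb and 75.8% of those over 5 kb. Longer elements offer more bases to overlap, and kept regions were likewise found on 56.2% of the shortest and 85.5% of the longest class. Elements that held absent regions and no other WT NRPE1 region were 5.58% of the shortest and 4.03% of the longest class. Counted by region, 8.45% of absent and 22.1% of kept regions overlapped a listed transposon, a difference of −13.6 points. It was −9.47 points where the overlap had to reach 0.5 of the shorter interval and −7.75 points in summit windows. Within the strength groups it was +6.58 points in the weakest, −0.0663 in the second and −4.29 in the third, so that its direction turned among the weakest regions.

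Absent regions lay farther than kept regions from the sites that gained NRPE1 in ZF108-DMS3. The median distance to the nearest gained region was 28.9 kb for absent and 10.8 kb for kept regions. In the windows that were not gene-poor it was 10.6 kb for absent and 7.84 kb for kept regions, and 74.2 kb and 45.5 kb in gene-poor windows. A kept region lay within 1 kb of 1014 absent regions (15.4%), and of 15.2% of partly kept regions. Absent, kept and gained regions were all chosen by the same NRPE1 lists of ZF108-DMS3 and WT. These distances are therefore a description only, and they were not divided by WT strength.

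Region 2 (chr1:26952898-26953493) lay inside *AGL12*, a MADS-box transcription factor gene, with its summit in the coding sequence. Its fold enrichment was 6.92 and 10.2 in WT, and it had no peak in the other 16 lists. The region was thus called in WT alone.

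Regions 4 to 8, also among the 8 strongest members, had NRPE1 in *h1*. Region 4 (chr3:15989038-15989490) lay in an exon of *NIT1*, a nitrilase gene, outside the coding sequence, with folds of 7.43 and 9.88 in *h1* and 5.13 and 6.87 in WT. SUVH1 had a peak there in both lists. Region 5 (chr5:14424713-14425188) overlapped *AT5G36710*, with 5.70 and 5.97 in *h1* and 5.85 and 8.50 in WT. Region 6 (chr1:13220233-13220798), at *AT1G35710*, had 5.51 and 8.90 in *h1* and 4.82 and 9.22 in WT, with SUVH1 in both lists. In neither *AT5G36710* nor *AT1G35710* did the region reach the coding sequence. Region 7 (chr1:25265770-25266739), between *emb1688* and *AT1G67450* and reaching into both, had 5.30 and 5.69 in *h1* and 4.40 and 6.995 in WT. Region 8 (chr2:17146953-17147784), 1670 bp from *AT2G41130*, had 3.72 and 4.48 in *h1* and 3.96 and 6.37 in WT. None of regions 4 to 8 had a peak of H1 or H3K9me2 in any list. Region 9 (chr2:7219888-7220274), in an exon of *AT2G16660* outside the coding sequence, was also among the strongest without NRPE1 in *h1*, with 3.63 and 5.70 in WT and no peak of any other antibody.

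The strongest members with H1 in both WT lists were regions 10 to 13. Region 10 (chr3:13598473-13599145) lay 2655 bp from the pseudogene *AT3G33058* and had a peak in every list of H1, H3K9me2 and SUVH1. Its folds were 2.51 and 2.46 in *h1* and 2.66 and 3.82 in WT. Region 11 (chr3:14254117-14254713) overlapped the start of *AT3G42060* and likewise had every H1, H3K9me2 and SUVH1 peak, with 7.30 and 13.5 in *h1* and 6.36 and 5.78 in WT. Region 12 (chr5:10707860-10708541) lay within the pseudogene *AT5G28673*, with 6.77 and 6.71 in *h1* and 5.37 and 5.79 in WT. Region 13 (chr2:4923187-4924140), at *AT2G12290*, had 6.33 and 6.39 in *h1* and 4.09 and 7.59 in WT. H1 was present in all 6 lists at each of the 4, in ZF108-DMS3 as in WT. Region 14 (chr5:12615656-12616344), 186 bp from the pseudogene *AT5G33381*, came second to region 10 among the members with H3K9me2, with 8.08 and 8.28 in *h1* and 3.98 and 6.51 in WT. It had H1 peaks in both *nrpe1* lists and in 1 of the 2 WT lists and none in ZF108-DMS3.

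Genes of the RdDM pathway were searched for absent regions in their body or in the 1 kb before their start. Among 22 genes of the RdDM machinery 2 held one, *SUVH9* and *DRD1*, and among 8 genes for methylation maintenance and linker histones none did. Among 8 genes beside known RdDM targets 1 did, *MEA*. Over all protein-coding genes the share was 6.05% (1661 of 27444). The *SUVH9* region (chr4:7826822-7827203), at the gene for a protein that helps recruit Pol V to methylated DNA, had NRPE1 folds of 3.85 and 5.01 in *h1* and 2.70 and 3.89 in WT. The *DRD1* region (chr2:7096765-7097133), before the gene of the chromatin remodeler that works with DMS3, had 3.18 and 4.58 in *h1* and 3.91 and 4.19 in WT. The *MEA* region (chr1:543990-544367), before an imprinted Polycomb gene, had 2.28 and 2.57 in WT and no peak in *h1*. No list of H1, H3K9me2 or SUVH1 had a peak in any of the 3 regions.

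The sequence of absent regions was richer in GC than that of kept regions in gene-poor DNA alone. In windows of 300 bases around the WT summit, the median GC content was 34.0% in absent, 31.0% in kept and 36.3% in all such windows of the 5 chromosomes. In gene-poor 100-kb windows the median was 35.7% in absent and 31.3% in kept regions. In the other 100-kb windows it was 30.7% in both classes. Within the absent regions the median GC content was 38.0% where H1 and H3K9me2 were present and 27.0% where neither was. The motif AAACCCTA, on either strand, was found in 5.00% of absent windows, 4.11% of kept windows and 3.88% of all windows. In gene-poor DNA it was found in 5.96% of absent and 4.56% of kept windows. Elsewhere the order turned, with 3.74% of absent and 3.96% of kept windows. The motif GAGAGAGA, on either strand, was found in 3.21% of absent, 8.74% of kept and 4.71% of all windows. A match is a description of the letters and was not tested.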

How the data were processed

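Of 34 samples, 18 ChIP-seq samples with peak lists were used, and the other 16 (H3 ChIP-seq and bisulfite sequencing) were not analysed here. Per the labels and methods, reads were mapped by the authors to TAIR10 with Bowtie2 2.1.0. Unique reads with no mismatch were kept, duplicates were removed (SAMtools), and MACS2 2.1.1 peaks were deposited for each library. The control and settings of peak calling are not given in the sources used here. Repeats without uniquely mapping reads can lack peaks. The fold (a ratio over local background), the −log10 p and the −log10 q were used as deposited by MACS2, as were starts, ends and summit offsets. The deposited score column was not used. The lists hold no reads, so depth is unknown and no interval was computed.

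Nuclear peaks that overlapped or touched were merged (Python 3.11.15, numpy 2.4.6, pandas 2.3.3), and a region held a readout when at least 1 bp overlapped a peak. Peak ends lay within the nuclear chromosomes of TAIR10.1, whose RefSeq annotation was used. It holds no transposons, so 1562 were taken by position from a list supplied with the study. Genotypes were compared by exact permutation of libraries and classes by exact sign-flips over lists, with Benjamini-Hochberg adjustment within each family. Alternatives were a −log10 q of at least 3, equally long NRPE1 lists, merging within 500 bp, stricter overlap, summit windows of 300 bases, other definitions of gene-poor windows, a replicate block and leaving out each library. The counting was tested on simulated data. Named regions are the strongest members in WT: 8 of all, 4 each of those without NRPE1 in *h1*, with H1 and on coding genes, and 2 with H3K9me2. Of these, 2 are not reported here. Members, lists and tests were chosen with earlier results of these data known.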

Additional observations from a re-analysis of the deposited data

How the results depend on the processing

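Every value rests on 2 libraries per genotype and on presence or absence in a list, so a weak peak and none are told apart only by the caller's threshold. The number of absent regions was 3964 with equally long NRPE1 lists and 2743 with peaks merged within 500 bp, and 6776 to 14156 when 1 of the 4 NRPE1 lists was left out. Of the members, 52.6% overlapped an absent region with equally long lists and 43.8% after merging within 500 bp.

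When each library was left out in turn, the H1 difference at absent regions between ZF108-DMS3 and WT ranged from −2.01 to 0.677 points, that between *nrpe1* and WT from −1.75 to 0.943 points, and the H3K9me2 difference between *h1* and WT from −6.17 to 0.449 points, so that none kept its sign. The differences between absent and kept regions kept theirs, with 20.9 to 43.0 points for H1, 17.3 to 38.0 for H3K9me2, −39.2 to −22.7 for SUVH1 and −8.00 to −2.15 for NRPE1 in *h1*. The share in gene-poor windows differed by 21.6 to 40.9 points and the share on listed transposons by −13.4 to −7.71 points.

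The gene-poor difference was 28.0 points at a −log10 q of at least 3, 20.4 with equally long lists, 40.3 after merging within 500 bp, 29.7 with windows under 20% coding bases and 29.2 with windows that had 10% or more of their bases under H3K9me2 in WT. The transposon difference was −16.6 after merging within 500 bp, −9.47 where the overlap had to reach 0.5 of the shorter interval and −7.75 in summit windows.

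Divisions by WT strength and by gene density were chosen after seeing the data. Within the weakest of the 4 strength groups the difference between absent and kept regions was 14.5 points for gene-poor windows, 6.58 for transposons and 13.9 for NRPE1 in *h1* (14.8 in summit windows). Within the second it was −4.66 for gene-poor windows, −0.0663 for transposons, 2.80 for NRPE1 in *h1* (2.46 in summit windows), −4.81 for H1 and −4.36 for H3K9me2 (−1.11 in summit windows). Within the third it was −12.6 for gene-poor windows, −4.29 for transposons, −16.4 for H1 (−7.88 in summit windows) and −12.1 for H3K9me2 (−7.80 in summit windows). In windows that were not gene-poor the transposon difference was −9.11. The cause of these changes was not tested.

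Replicate numbers only name the samples, since no label ties equal numbers to a shared batch and lists of equal number did not deviate together (correlations of 0.0201, −0.00444 and 0.0263 over 16812 regions). With the replicate block the differences were −0.669, −0.403 and −2.86 points (exact p = 0.5, 1.0 and 0.5), and no call changed.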
